A study of Mus musculus with 12 samples.

Results

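The 33 genes described here make proteins that fold, quality-control and move newly made secretory protein through the endoplasmic reticulum (ER), or that sense folding stress there. They were taken as a list by gene symbol, with earlier results of these data known. All 33 were found among the 25511 gene rows of the table, some of which name no gene. They comprise 10 lumenal chaperones and helpers, 2 lectin chaperones, 4 disulfide isomerases, 8 components of the translocon and signal peptidase, 2 subunits of the COPII coat, 4 genes of ER-associated degradation, and 3 genes of stress sensing and its transcription factor. All 33 passed the filter on low counts.

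The cells were primary osteoblast-like cells released by collagenase from the calvariae of newborn C57Bl/6J mice, either wild type (WT) or F2rl1 -/- (KO). F2rl1 encodes protease-activated receptor-2 (PAR2), a receptor switched on by proteolytic cleavage, and the study asked what part it plays when bone-forming cells meet products of prostate cancer cells. After 48 hours of culture, the cells of every group were moved to BRFF-HPC1 medium with 20% serum and kept there for 4 days. In the control groups this medium was unconditioned, and in the treated groups it had first been conditioned for 48 hours by MDA-PCa-2b, an established cell line of human prostate cancer.

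There were thus 4 groups of 3 libraries, named here by genotype, medium and the library number (0 to 2) of the table. WT unconditioned libraries 0 and 1 differed by less than sampling noise (chi-square 759 on 15474 degrees of freedom, against at least 94766 for any other pair within a group) and were counted as 1 sample by their mean, which leaves 11 libraries of 15023994 to 16956754 fragments and an n of 2 for that group. One sample titled as a WT control carries the KO genotype in another label, and it was kept in the WT unconditioned group by its title. Library 0 stood apart from libraries 1 and 2 in both KO groups, with chi-squares of at least 893753 against 94766 and 202529 between libraries 1 and 2, and WT conditioned library 1 stood apart from its group (577137 and 988125, against 270588 for the other pair). F2rl1 itself gave only 12 to 46 fragments and was not lower in the KO libraries (33 to 46 unconditioned, 12 to 31 conditioned) than in the WT ones (20 to 25 and 14 to 23), so the genotype labels were not borne out by this gene, and KO and WT below are the labels' names; which part of the gene was deleted is not given in the sources used here. Osteoblast markers, 12 of 13 with at least 10 fragments in some library and Dmp1 below that, summed to 36670 to 58070 CPM (counts scaled to a common library size) in the unconditioned libraries and 24480 to 41510 in the conditioned ones. Macrophage markers, 8 of 8 detected, summed to 47.2 to 80.1 CPM without conditioning, 103 to 133 in WT conditioned and 46.4 to 117 in KO conditioned libraries. Of the plasma cell markers, which would mark another secretory cell, only Sdc1 passed 10 fragments. Sample titles give a control and a treated sample of a genotype the same number, such as KO1 Control and KO1 MDA. Nothing ties this number to the library numbers, and the main fit used no pairing. The labels do not tie libraries to separate animals or cultures, so the spread behind each p-value may be technical. In bulk RNA fewer cells of a type and less RNA per cell cannot be told apart.

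Secretory proteins enter the ER through the Sec61 channel, lose their signal peptide, fold with the help of chaperones and disulfide isomerases, and leave in COPII vesicles. When unfolded protein builds up, the sensors IRE1 (Ern1), ATF6 and PERK start the unfolded protein response, which raises chaperones, folding enzymes and degradation factors. Osteoblasts secrete large amounts of type I collagen, so this machinery is abundant in them, and the chaperone HSP47 (Serpinh1) and prolyl hydroxylase, of which P4hb is a subunit, serve collagen in particular.

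The promoter windows of some of these genes hold the letters of known elements of that response. RefSeq windows (GRCm38.p6) of 250 bases before to 50 bases after the start site were matched for 27 of the 33 genes; Hyou1, Manf, Sec61a1, Ssr2, Spcs3 and Atf6 had no match. The ER stress response element ERSE, searched on both strands as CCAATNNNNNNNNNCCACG, was found in 8 of the 27 windows (29.6%: Calr, Canx, Creld2, Dnajc3, Hsp90b1, Hspa5, Pdia6 and Syvn1), against 0.119% of all 32851 windows. ERSE-II, which is ATTGG, any base and CCACG, was found in Dnajb11 and Herpud1 (7.41%, against 0.0365%), and the element UPRE, TGACGTGG, in Sec23a and Sec24d (7.41%, against 0.676%). ERSE and ERSE-II both end in CCACG, and no window of the 27 held both. A match describes these letters only and does not show binding. The genes were listed for their part in these pathways, so their share beside all windows is a description and not a test. The sites below belong to the genes that the results turn on: Hspa5 and Herpud1, which were not called in any comparison of the 11 libraries, and Hsp90b1, Pdia6 and Sec24d, which fell. Each is read 5′ to 3′ on the strand of its gene, with the motif in capitals.
Hspa5 (chr2:34772010-34772058, plus strand, ERSE): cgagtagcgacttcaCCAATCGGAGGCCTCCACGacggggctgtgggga
Hsp90b1 (chr10:86705623-86705671, minus strand, ERSE): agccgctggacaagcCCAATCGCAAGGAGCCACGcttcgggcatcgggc
Hsp90b1 (chr10:86705518-86705566, minus strand, ERSE in reverse complement): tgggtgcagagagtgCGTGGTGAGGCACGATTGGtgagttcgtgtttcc
Pdia6 (chr12:17266476-17266524, plus strand, ERSE): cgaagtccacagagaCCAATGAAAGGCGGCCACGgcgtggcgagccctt
Herpud1 (chr8:94386362-94386402, plus strand, ERSE-II): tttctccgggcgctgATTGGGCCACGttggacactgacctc
Sec24d (chr3:123267455-123267492, plus strand, UPRE): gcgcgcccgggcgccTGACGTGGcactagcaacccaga

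Per unit of transcript length, in the authors' FPKM (fragments per kilobase of transcript, relative to library size), the genes spanned a wide range. In WT cells in unconditioned medium the most abundant was Calr, the calcium-binding lectin chaperone calreticulin, at 1152 ± 9.13 (SD, n = 2). P4hb followed at 881 ± 48.9 and Hsp90b1, the ER chaperone GRP94, at 794 ± 3.02, with Pdia3, the glycoprotein disulfide isomerase ERp57, at 630 ± 22.3 and Hspa5, the master chaperone BiP, at 625 ± 0.0099. These last 2 did not differ beyond their spread. The sensors were among the lowest, Atf6 at 8.87 ± 0.164 and Ern1 at 6.98 ± 0.0027. Sec61g, a small subunit of the Sec61 channel, was lowest at 1.12 ± 0.242, from 5 to 20 fragments per library. Its partners in that channel stood far higher, Sec61a1 at 125 ± 2.00 and Sec61b at 74.7 ± 7.97. The reason for this gap was not tested. In KO cells in conditioned medium the order at the top was Hspa5 at 895 ± 414 (SD, n = 3), Calr at 722 ± 225, Hsp90b1 at 494 ± 79.7 and P4hb at 485 ± 93.1, and neighbours in that order did not differ beyond their spread.

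**Figure D1:**
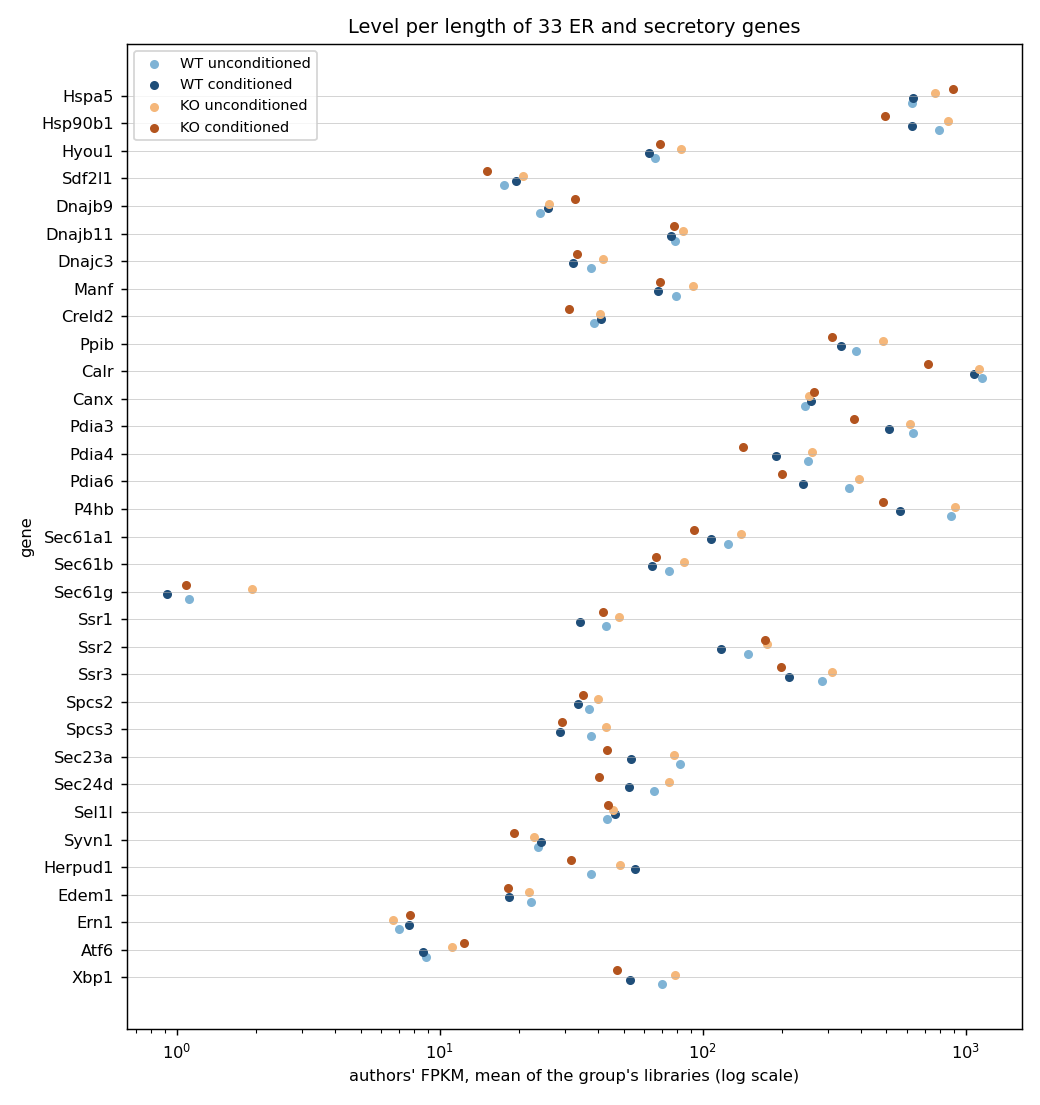
Mean FPKM of each of the 33 genes (log axis) in the 4 groups, 1 point per group. Calr, Hspa5, P4hb and Hsp90b1 lie at the right, and Atf6, Ern1 and Sec61g at the left. In the disulfide isomerases and the COPII coat the conditioned groups lie to the left of the unconditioned groups.

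Conditioned medium lowered part of this machinery. On the mean effect over both genotypes, 11 of the 33 genes fell and 0 rose (adjusted p under 0.05), against 10.1% of all 13603 genes tested that fell and 10.4% that rose (20.5% in either direction). The 11 were 3 of 4 disulfide isomerases (P4hb, Pdia6, Pdia4), both COPII subunits (Sec23a, Sec24d), 3 of 8 translocon and signal peptidase genes (Ssr3, Spcs3, Sec61a1), 2 of 10 lumenal chaperones (Hsp90b1, Ppib) and Xbp1, with falls of 0.40 to 0.77 on the log2 scale. Hspa5 and all 4 degradation genes were not called. In KO cells alone 11 fell (background 8.58%) and 0 rose (9.68%, and 18.3% in either direction); in WT cells alone 0 were called (0.551% of all genes fell and 1.23% rose, 1.78% together), with 5 at an unadjusted p under 0.05 (15.2%, the same share as over all genes), 2 by DESeq2 (P4hb and Sec23a; 6.06%, against 6.52% of all genes) and 0 by limma. DESeq2 called 14 in KO (42.4%, against 26.4%) and 13 on the mean effect (39.4%, against 26.8%), all lower, adding Pdia3 and Sec61b to the 11 in both and Calr in KO. The median log2 change of the 33 genes was -0.27 on the mean effect, -0.42 in KO and -0.21 in WT, against 0.02, 0.02 and 0.01 over all genes. Relative to the mean of each gene over the 11 libraries, the median of the 33 was 0.09 in WT conditioned library 1, above both WT unconditioned libraries (0.05 and 0.08), and -0.25 and -0.18 in the other WT conditioned ones. KO unconditioned library 0 was at 0.05, against 0.36 and 0.40 in libraries 1 and 2, and the KO conditioned libraries lay between -0.25 and -0.11. The mean effect contains the libraries of both genotypes and so is not separate evidence from the KO and WT effects. All adjusted p-values here come from edgeR's quasi-likelihood test with Benjamini-Hochberg adjustment over all genes tested. Every call in KO cells was lost without KO conditioned library 1 or without KO unconditioned library 1, and 0 of the 33 were called when the KO groups were fitted alone. Calls over all genes in KO also dropped, from 2484 to 319, 400 and 534 in these fits, in that order. Without KO unconditioned library 2 only Pdia6 was left, and without KO conditioned library 2 only P4hb, Pdia6, Sec23a and Spcs3. Over all genes these fits called 457 and 687. On the mean effect, 5 remained whichever library was left out (P4hb, Pdia6, Sec23a, Spcs3 and Ssr3), which were also the only ones left without WT unconditioned library 0. The fit without that library called 1231 over all genes, against 2787. How many calls over all genes held whichever library was left out was not counted. Scaling by library totals alone moved the median log2 change of all genes to 0.15 on the mean effect and 0.21 in KO, and the share of called genes that were higher from 50.8% to 70.4% and from 53.0% to 75.8%. The summed osteoblast markers given above were also lower in the conditioned KO libraries (24480 to 33460 CPM) than in the unconditioned ones (36670 to 58070). Col1a1, Col1a2, Spp1 and Sparc made up nearly all of this sum, and none of these was called in KO. They gave 29520 to 328300 fragments per library, against at most 1568 for any other marker listed. Single markers differed: of 11 tested on the mean effect, Alpl and Pth1r fell, Bglap2 rose by 2.68 (adjusted p = 0.0186, from 0 to 41 fragments) and 8 were not called. Endothelial markers, 2 of 5 detected with Pecam1, Tie1 and Emcn below 10 fragments in every library, summed to 5.04 to 11.9 CPM in conditioned and 3.03 to 4.82 in unconditioned libraries, and Kdr rose by 1.89 (adjusted p = 0.0259, from 7 to 128 fragments). The part of these cell types in the falls was not tested.

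**Figure D2:**
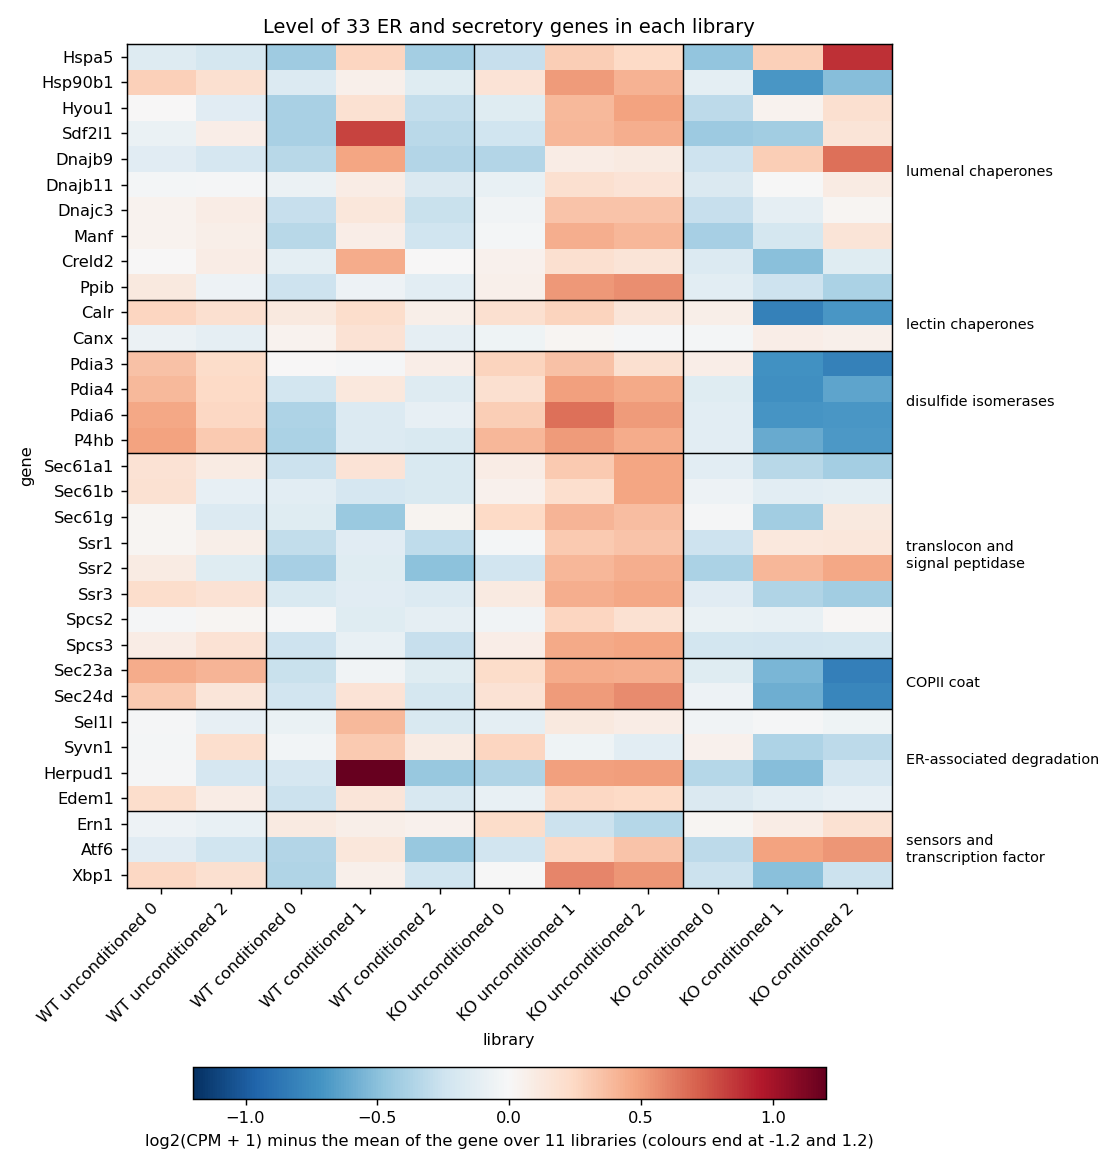
log2(CPM + 1) of each gene in each of the 11 libraries, minus the mean of the gene over the libraries; red is above and blue below that mean, and horizontal lines separate the roles. The disulfide isomerases and COPII subunits are red in the unconditioned and mostly blue in the conditioned columns, while Hspa5, Dnajb9 and Atf6 are red in KO conditioned libraries 1 and 2, and Herpud1 and Sdf2l1 stand out in WT conditioned library 1.

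The genes also differed in how cleanly the libraries separated. In 8 of the 33 genes (24.2%) every conditioned library lay below every unconditioned one in CPM, against 8.45% of all genes: Hsp90b1, Pdia3, Pdia4, Pdia6, P4hb, Ssr3, Spcs3 and Sec23a. None lay wholly above, against 7.98% of all genes. Within WT cells the medium groups did not overlap for 11 genes with conditioned below (background 20.6%) and for Ern1 alone with conditioned above (21.8%). Within KO cells they did not overlap for 17 genes, all with conditioned below (15.4%), and for 0 with conditioned above (15.8%).

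Among the disulfide isomerases, which form and rearrange disulfide bonds in the ER, all 4 had lower values in conditioned medium. P4hb (PDI) gave 38563 and 32210 fragments in WT unconditioned, 21672, 23999 and 24105 in WT conditioned, 35382, 36781 and 36773 in KO unconditioned, and 26671, 19638 and 20870 in KO conditioned libraries. The unconditioned libraries all lay above the conditioned ones in both genotypes, and KO conditioned library 0 was the highest of the treated ones. The log2 change was -0.77 (SE 0.13, adjusted p = 0.00362) on the mean effect, a 1.71-fold lower level, with -0.91 in KO (SE 0.18, adjusted p = 0.0117) and -0.64 in WT (SE 0.19, adjusted p = 0.132).
Pdia6, a second isomerase, carries one of the ERSE sites shown above. It gave 13149 and 10662 fragments in WT unconditioned, 7525, 8285 and 8842 in WT conditioned, 11375, 14034 and 13237 in KO unconditioned, and 9205, 6293 and 7181 in KO conditioned libraries. Again no conditioned library reached an unconditioned one. Its mean log2 change was -0.77 (SE 0.14, adjusted p = 0.00449), with -0.98 in KO (adjusted p = 0.0111) and -0.57 in WT (adjusted p = 0.204).
Pdia4 (ERp72), whose locus in the table also carries the microRNA Mir704, gave 10740 and 9097 fragments in WT unconditioned, 7161, 8703 and 7324 in WT conditioned, 9082, 10769 and 10936 in KO unconditioned, and 7828, 5295 and 6455 in KO conditioned libraries. The lowest unconditioned and the highest conditioned library were close but did not overlap in CPM. It fell by 0.63 on the log2 scale on the mean effect (SE 0.13, adjusted p = 0.0103) and by 0.87 in KO (adjusted p = 0.0146), and its call on the mean effect was lost without WT unconditioned library 0. Pdia3 separated by medium in every library too, at -0.48 on the mean effect, but did not pass the edgeR test (adjusted p = 0.0643); DESeq2 and limma on FPKM called it.

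The COPII coat buds the vesicles that carry cargo out of the ER, and both of its subunits among the 33 genes fell. Sec23a, an inner coat subunit, gave 5628 and 5169 fragments in WT unconditioned, 3512, 3898 and 3722 in WT conditioned, 4690, 5264 and 5476 in KO unconditioned, and 3941, 3045 and 2852 in KO conditioned libraries. The media did not overlap in either genotype. Its mean log2 change was -0.72 (SE 0.12, adjusted p = 0.00366), with -0.86 in KO (adjusted p = 0.0114) and -0.58 in WT (adjusted p = 0.146). Sec24d, a cargo-binding subunit, gave 4447 and 3714 fragments in WT unconditioned, 3108, 3891 and 3064 in WT conditioned, 3903, 4739 and 5146 in KO unconditioned, and 3605, 2554 and 2510 in KO conditioned libraries. WT conditioned library 1 reached the unconditioned range, and the KO libraries did not overlap. It fell by 0.60 on the mean effect (SE 0.15, adjusted p = 0.0207) and by 0.88 in KO (SE 0.20, adjusted p = 0.0203). The UPRE letters stood in the windows of these 2 genes and of no other of the 27. The call of Sec24d on the mean effect was lost without KO conditioned library 1, KO unconditioned library 1 or 2, WT conditioned library 0, or WT unconditioned library 0 or 2.

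Of the translocon genes, Ssr3 (a subunit of the TRAP complex, which assists translocation) gave 13484 and 12325 fragments in WT unconditioned, 10442, 10308 and 10313 in WT conditioned, 12174, 14624 and 15607 in KO unconditioned, and 11136, 9773 and 10633 in KO conditioned libraries. The WT conditioned values were nearly equal, no conditioned library reached an unconditioned one in CPM, and its mean log2 change was -0.50 (SE 0.10, adjusted p = 0.00865). Spcs3, a subunit of the signal peptidase that removes signal peptides, gave 2073 and 2070 fragments in WT unconditioned, 1675, 1781 and 1596 in WT conditioned, 1996, 2488 and 2637 in KO unconditioned, and 1767, 1792 and 2037 in KO conditioned libraries. In CPM the KO conditioned libraries were nearly equal, 110 ± 0.483 (SD, n = 3), against 163 ± 24.1 in KO unconditioned. Its mean log2 change was -0.45 (SE 0.09, adjusted p = 0.00655). Sec61a1, the pore-forming subunit of the channel, gave 6415 and 5717 fragments in WT unconditioned, 4861, 6183 and 4981 in WT conditioned, 5864, 6589 and 7717 in KO unconditioned, and 5488, 4865 and 5221 in KO conditioned libraries. It overlapped in WT and not in KO, with a mean log2 change of -0.40 (SE 0.11, adjusted p = 0.0323) that passed the test in 3 of 11 fits leaving out a library (those without library 0 of either KO group or without WT conditioned library 1). The other 5 genes of this role (Sec61b, Sec61g, Ssr1, Ssr2 and Spcs2) were not called, with mean log2 changes of -0.14 to -0.56. Ssr2, another TRAP subunit, split by library number in the KO groups, with 1880 and 1831 fragments in library 0 of the KO groups against 2787 to 3806 in libraries 1 and 2.

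The lumenal chaperones did not move as a block. Hsp90b1, which folds selected client proteins and has 2 ERSE sites, gave 37345 and 32933 fragments in WT unconditioned, 27945, 31059 and 27576 in WT conditioned, 33352, 40738 and 39813 in KO unconditioned, and 29744, 20339 and 26221 in KO conditioned libraries. No conditioned library reached the unconditioned range. Its mean log2 change was -0.56 (SE 0.14, adjusted p = 0.0191), with -0.79 in KO (adjusted p = 0.0209) and -0.32 in WT (adjusted p = 0.53), and the mean call was lost without WT unconditioned library 0 or 2, WT conditioned library 0 or KO unconditioned library 1.
Ppib (cyclophilin B), a prolyl isomerase of the ER that acts on procollagen, gave an estimated 5672 and 4715 fragments in WT unconditioned, 4480, 4889 and 4768 in WT conditioned, 5301, 6975 and 7501 in KO unconditioned, and 5053, 4748 and 4904 in KO conditioned libraries. The WT media overlapped and the KO media did not. It fell by 0.41 on the mean effect (SE 0.11, adjusted p = 0.0281) and by 0.64 in KO (adjusted p = 0.0205), and the mean call held in 4 of 11 fits leaving out a library (those without library 0 of either KO group or without WT conditioned library 1 or 2).
Hspa5 gave 26485 and 23833 fragments in WT unconditioned, 22357, 34213 and 22066 in WT conditioned, 23551, 33743 and 33857 in KO unconditioned, and 22388, 38631 and 66007 in KO conditioned libraries. The KO conditioned libraries held both one of the lowest values and the highest, so the medium groups overlapped in both genotypes. Its mean log2 change of 0.13 (SE 0.25, adjusted p = 0.747) was not called, and turned to -0.06 without KO conditioned library 2 and to -0.0043 without WT conditioned library 1. Dnajb9 (ERdj4), a co-chaperone of BiP, had a like spread, with 717 and 642 fragments in WT unconditioned, 636, 1072 and 611 in WT conditioned, 599, 786 and 831 in KO unconditioned, and 700, 1047 and 1530 in KO conditioned libraries. WT conditioned library 1 and KO conditioned library 2 were the highest of their groups, as for Hspa5, and the mean change of 0.24 (SE 0.21, adjusted p = 0.436) was not called. The other 6 lumenal genes, Hyou1, Sdf2l1, Dnajb11, Dnajc3, Manf and Creld2, were not called, at -0.07 to -0.32.

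**Figure D3:**
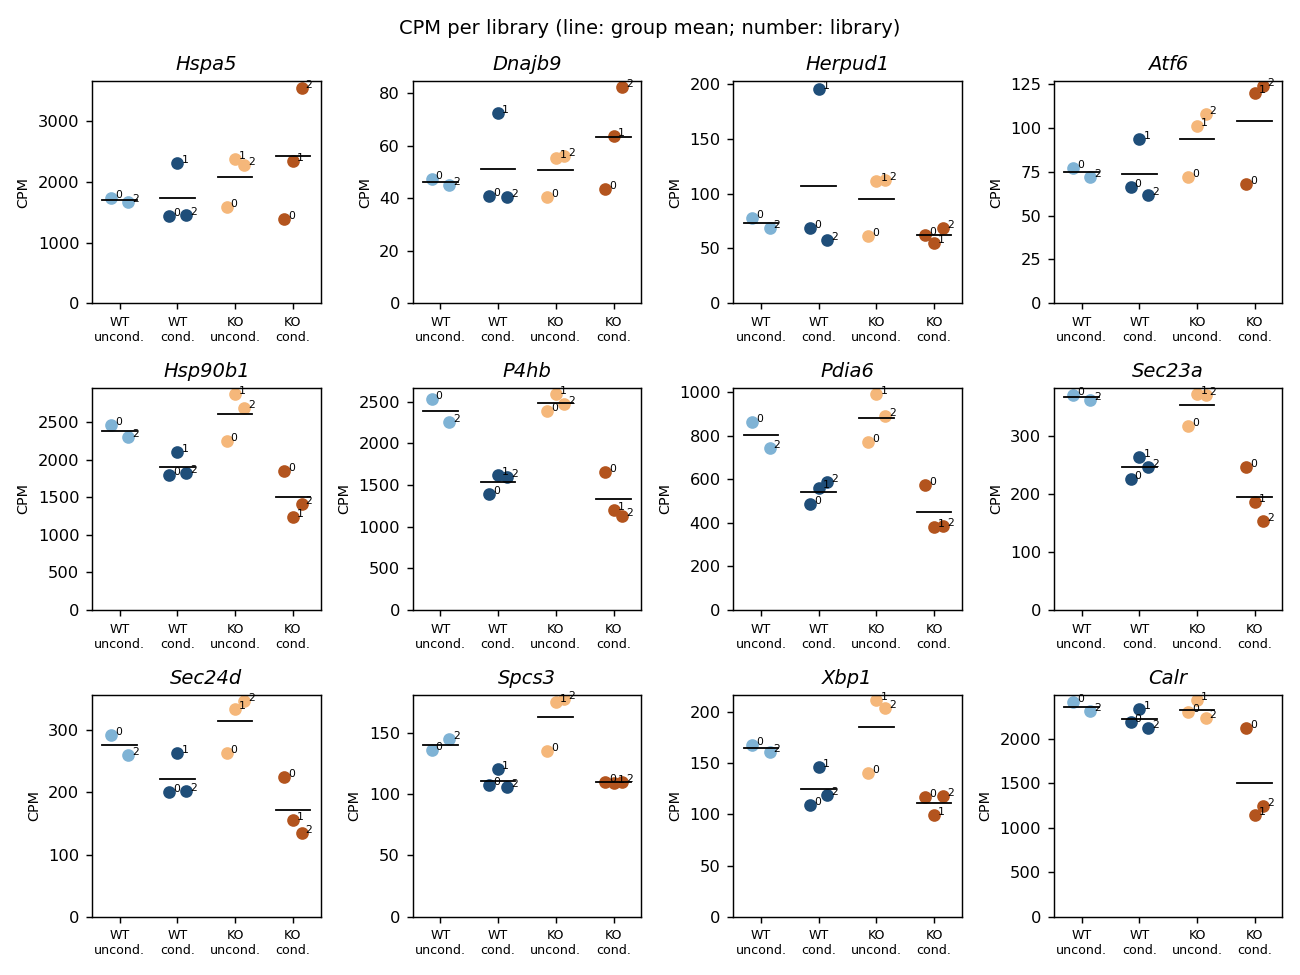
CPM of 12 genes in every library (points, with the library number beside each) and the group mean (line); axes start at 0. In the first row the groups overlap and single libraries stand high, such as WT conditioned library 1 for Herpud1 and KO conditioned library 2 for Hspa5. For P4hb, Pdia6, Sec23a, Hsp90b1 and Spcs3 all conditioned points lie below all unconditioned points.

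The lectin chaperones hold glycoproteins until they are folded. Neither of the pair was called in the main fit, and a difference between them was not tested. Calr gave 36714 and 33021 fragments in WT unconditioned, 34046, 34628 and 32160 in WT conditioned, 34150, 34516 and 33140 in KO unconditioned, and 34174, 18879 and 23104 in KO conditioned libraries. KO conditioned libraries 1 and 2 were the only low ones. The change in KO, -0.63 (SE 0.22), did not pass the test (adjusted p = 0.0741), and was called by DESeq2, by limma on FPKM, and when library 0 of KO conditioned was left out. Canx, its membrane-bound relative calnexin, ranged only from 16147 to 23505 fragments and changed by 0.09 (SE 0.09, adjusted p = 0.514) on the mean effect.

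ER-associated degradation returns misfolded proteins to the cytosol for the proteasome. None of its 4 genes was called in any comparison of the 11 libraries: Sel1l and Syvn1, the core of a membrane ubiquitin ligase, changed by 0.03 and -0.10 on the mean effect, and Edem1, which hands misfolded glycoproteins over, by -0.26 (adjusted p = 0.0906). Herpud1, a stress-induced partner of that ligase with an ERSE-II site, gave 1187 and 980 fragments in WT unconditioned, 1066, 2900 and 867 in WT conditioned, 904, 1584 and 1669 in KO unconditioned, and 999, 903 and 1270 in KO conditioned libraries. Its highest library by far was WT conditioned library 1. The mean change was -0.04 (SE 0.31, adjusted p = 0.95), and the change in WT was 0.55 with that library and -0.22 without it. The same library also held the highest Sdf2l1 (491 fragments, against 215 to 385 in the others) and Creld2 (1036, against 590 to 854), both chaperone-associated stress-response genes, and had skeletal muscle markers (7 of 7 detected) summing to 142 CPM, against 17.5 to 43.9 in the other conditioned libraries and 30.6 to 198.5 in the unconditioned ones. The part of muscle cells in these values was not tested.

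Of the sensing genes, Xbp1, the transcription factor activated by IRE1-dependent splicing, fell. It gave 2556 and 2304 fragments in WT unconditioned, 1705, 2172 and 1801 in WT conditioned, 2078, 2999 and 3031 in KO unconditioned, and 1886, 1631 and 2181 in KO conditioned libraries. The media did not overlap within either genotype, although WT conditioned library 1 lay above KO unconditioned library 0 in CPM. Its mean log2 change was -0.56 (SE 0.13, adjusted p = 0.013), with -0.73 in KO (adjusted p = 0.0203) and -0.39 in WT (adjusted p = 0.363). Splicing could not be read from these values: in the transcript table all 24344 Xbp1 fragments are assigned to the unspliced form NM_013842 (2247 bases), and the spliced form NM_001271730 (2221 bases) is listed at 0 in every library, which can be a failed estimate for transcripts this alike. Ern1 gave 872 and 806 fragments in WT unconditioned, 1006, 928 and 937 in WT conditioned, 1035, 706 and 695 in KO unconditioned, and 980, 1047 and 1262 in KO conditioned libraries. In CPM its WT conditioned libraries all lay above the WT unconditioned ones, while KO unconditioned library 0 was the highest of all 11, and the mean change of 0.18 (SE 0.11, adjusted p = 0.247) was not called. Atf6 gave 1178 and 1027 fragments in WT unconditioned, 1032, 1385 and 935 in WT conditioned, 1069, 1433 and 1602 in KO unconditioned, and 1096, 1968 and 2294 in KO conditioned libraries. Libraries 1 and 2 were the highest in both KO groups, and the mean change was 0.07 (SE 0.19, adjusted p = 0.822).

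**Figure D4:**
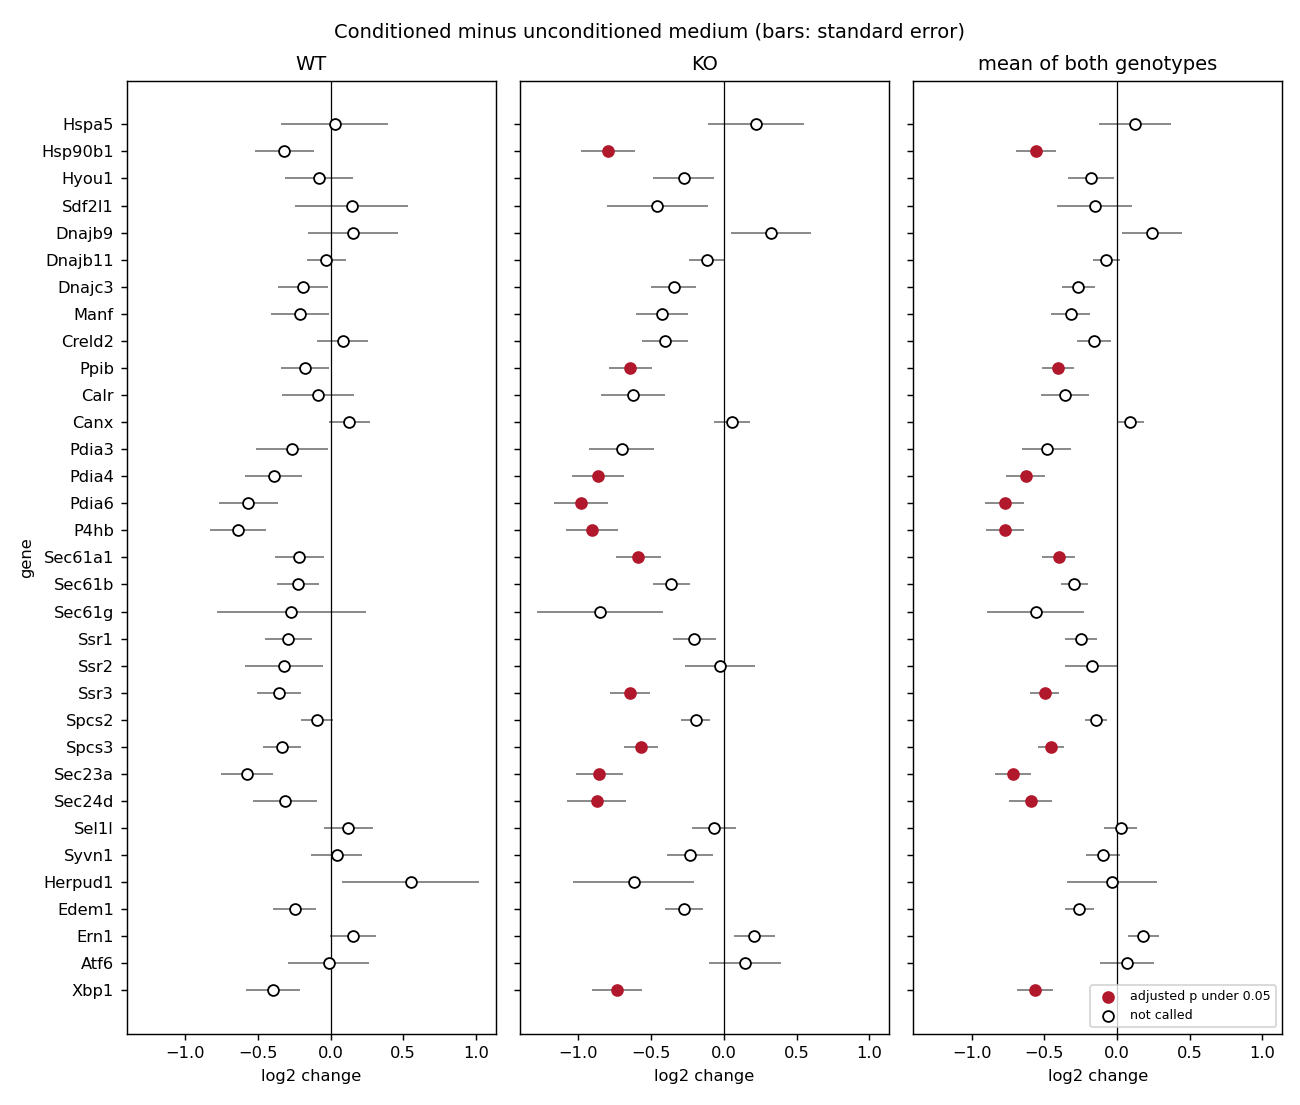
log2 change with conditioned medium in WT, in KO and averaged over both genotypes, 1 row per gene, with the standard error as a bar and filled points where the adjusted p is under 0.05. The 11 filled points in the KO and mean panels all lie left of 0, and no point is filled in WT, where most points also lie left of 0 with wider bars.

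Between the libraries labelled KO and WT, none of the 33 genes was called; the F2rl1 values above did not check these labels. In unconditioned medium 0 were called (0.00735% of all genes), with 0 at an unadjusted p under 0.05 (2.16% of all genes). The log2 differences of KO minus WT ran from -0.06 (Syvn1) to 0.80 (Sec61g, at 5 to 20 fragments per library). In conditioned medium 0 were called (0% of all genes), with 4 at an unadjusted p under 0.05 (12.1%, against 13.9% of all genes), and the extremes were Herpud1 at -0.79 (SE 0.42, adjusted p = 0.374) and Ssr2 at 0.55 (SE 0.24, adjusted p = 0.357). The test of whether the medium effect differed between genotypes called 0 of the 33 (0% of all genes), with 0 at an unadjusted p under 0.05 (3.03% of all genes). DESeq2 and limma also called 0 of the 33 in these 3 comparisons. The fitted medium effect was lower in KO than in WT for 27 of the 33, with a median difference of -0.27, against 51.8% of all genes and a median of -0.02. Since no gene passed that test, the larger count in KO than in WT cells is not shown to be a difference between genotypes.

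These genotype results rested on library 0 of the KO groups. With library 0 of both KO groups left out, 13 of the 33 members differed between KO and WT in conditioned medium. This was a smaller share than the 42.6% of all genes. Of the 13 members, 4 were higher in KO (Hspa5, Atf6, Ssr1 and Ssr2) and 9 lower (Calr, Pdia3, Pdia4, Pdia6, P4hb, Hsp90b1, Sec23a, Sec24d and Syvn1). The widest differences were Calr at -0.88 (SE 0.11, adjusted p = 0.000941), Ssr2 at 0.79 (SE 0.11, adjusted p = 0.00145), Pdia3 at -0.78 (SE 0.11, adjusted p = 0.00119) and Hspa5 at 0.78 (SE 0.24, adjusted p = 0.0291). In the same fit 9 members had a lower medium effect in KO than in WT: Calr, Hsp90b1, Pdia3, Pdia4, Pdia6, Ppib, Sec23a, Sec24d and Ssr3. Of all genes 19.2% were called in either direction, 1315 of these 2605 lower. Ppib was higher in KO in unconditioned medium, at 0.51 (SE 0.10, adjusted p = 0.0362; 4.86% of all genes called). The medium effect was called for 5 members in WT, 19 in KO and 20 on the mean effect. All were lower but Ern1, which rose by 0.45 in KO and 0.30 on the mean effect. Of all genes 11.7%, 50.4% and 48.6% were called in either direction. Lower were 810 of 1589 in WT, 3387 of 6822 in KO and 3256 of 6590 on the mean effect. Leaving out KO conditioned library 0 alone gave calls for 12 of the 33 between genotypes in conditioned medium, against 33.2% of all genes. It also gave 2 of the 33 for the difference of medium effects (Calr and Pdia3, against 10.5%) and 3 in WT (against 6.75%). Library 0 was left out because it stood apart over all genes. With it left out of both, the counts rest on 2 libraries per KO group, the 2 most alike. The spread within the KO groups is then smaller by this choice. These counts and adjusted p-values describe that selection and are not separate evidence of a genotype difference. WT conditioned library 1, which also stood apart from its group, was kept in these fits.

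A further list of 114 genes of the same pathways, of which 111 were tested (Erp27, Derl3 and Fam8a1 were not), gave 30 that fell and 4 that rose on the mean effect, with a median log2 change of -0.12. The counts by class that follow are to be read against the 10.1% of all genes that fell and the 10.4% that rose, and most classes are small. The collagen chaperones fell in 4 of 5: Fkbp7 by 0.92 (SE 0.20, adjusted p = 0.011), Fkbp14 by 0.70, Serpinh1 by 0.66 and Fkbp10 by 0.53. Oxidative folding genes fell in 5 of 11 tested, led by Prdx4, a peroxiredoxin of the ER, at -0.82 (SE 0.15, adjusted p = 0.00492) and the isomerase Pdia5 at -0.80 (SE 0.20, adjusted p = 0.0191). In COPII and export genes 10 of 25 fell, led by Sec16b, a scaffold of ER exit sites, at -1.38 (SE 0.25, adjusted p = 0.00487), the cargo receptor Lman1 at -0.71 and the retrieval receptor Kdelr2 at -0.71. COPI genes, which serve transport back to the ER, fell in 3 of 6, and translocon and targeting genes in 5 of 17. The class of oligosaccharyltransferase subunits, which attach glycans, also holds glycan-processing enzymes (Uggt1, Uggt2, Ganab, Prkcsh and Mogs). In this class 3 of 13 fell, all of them subunits (Rpn1, Rpn2 and Ddost). None of 17 degradation genes fell on the mean effect, and Ufd1l rose by 0.25. In KO cells Erlec1 of this class was called lower (8.58% of all genes fell there), and it kept that call in 2 of 11 fits leaving out a library. In WT cells alone 0 of the 111 were called (1.78% of all genes), with 14 at an unadjusted p under 0.05 (15.2% of all genes).

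In the PERK arm and its death genes, 2 of 7 rose and 0 fell. Ddit3 (CHOP), a transcription factor induced downstream of PERK and of other stress kinases, gave 705 and 465 fragments in WT unconditioned, 1581, 3238 and 1016 in WT conditioned, 509, 930 and 939 in KO unconditioned, and 1063, 7058 and 12118 in KO conditioned libraries. The conditioned libraries were all higher, most of all KO conditioned 1 and 2. Its log2 change was 2.26 (SE 0.55, adjusted p = 0.0184) on the mean effect and 2.82 in KO (adjusted p = 0.0289). Ppp1r15a (GADD34), which reverses the PERK signal on translation, rose by 1.31 (SE 0.36, adjusted p = 0.029), with 4995 and 7672 fragments in KO conditioned libraries 1 and 2 against 893 to 2239 elsewhere. Atf4, the factor upstream of both, changed by 0.28 (adjusted p = 0.401) and Eif2ak3, which encodes PERK, by -0.02 (adjusted p = 0.911); neither was called. Wfs1, an ER membrane protein, rose by 0.96 (SE 0.13, adjusted p = 0.00156), with 1262 to 2540 fragments in all conditioned against 752 to 825 in all unconditioned libraries. Creb3l1 (OASIS), an ER-tethered transcription factor that acts on collagen genes in osteoblasts, fell by 0.96 in KO (SE 0.27, adjusted p = 0.0392) and missed the threshold on the mean effect at -0.63 (adjusted p = 0.0511). Of the 34 calls on the mean effect in this list, 11 held whichever library was left out (Dnajc10, Fkbp10, Kdelr2, Prdx4, Sec16b, Sec63, Ssr4, Surf4, Txndc11, Txndc5 and Wfs1). The like count over all genes was not made. The call of Fkbp7 was lost without WT unconditioned library 0, and those of Ddit3 and Fkbp14 without WT unconditioned library 0 or 2. Serpinh1 and Lman1 lost theirs without either of these, WT conditioned library 0 or KO unconditioned library 1, and Pdia5 without WT unconditioned library 0, WT conditioned library 0 or KO unconditioned library 1. In KO cells Ddit3 lost its call without any of the 3 KO unconditioned libraries or KO conditioned library 1 or 2, and under limma. Ppp1r15a lost its mean call without library 1 or 2 of either KO group, WT conditioned library 1, or either WT unconditioned library, and under limma. Ufd1l lost its call without any of 8 libraries, as did Creb3l1 in KO; both kept it without library 0 of either KO group.

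**Figure D5:**
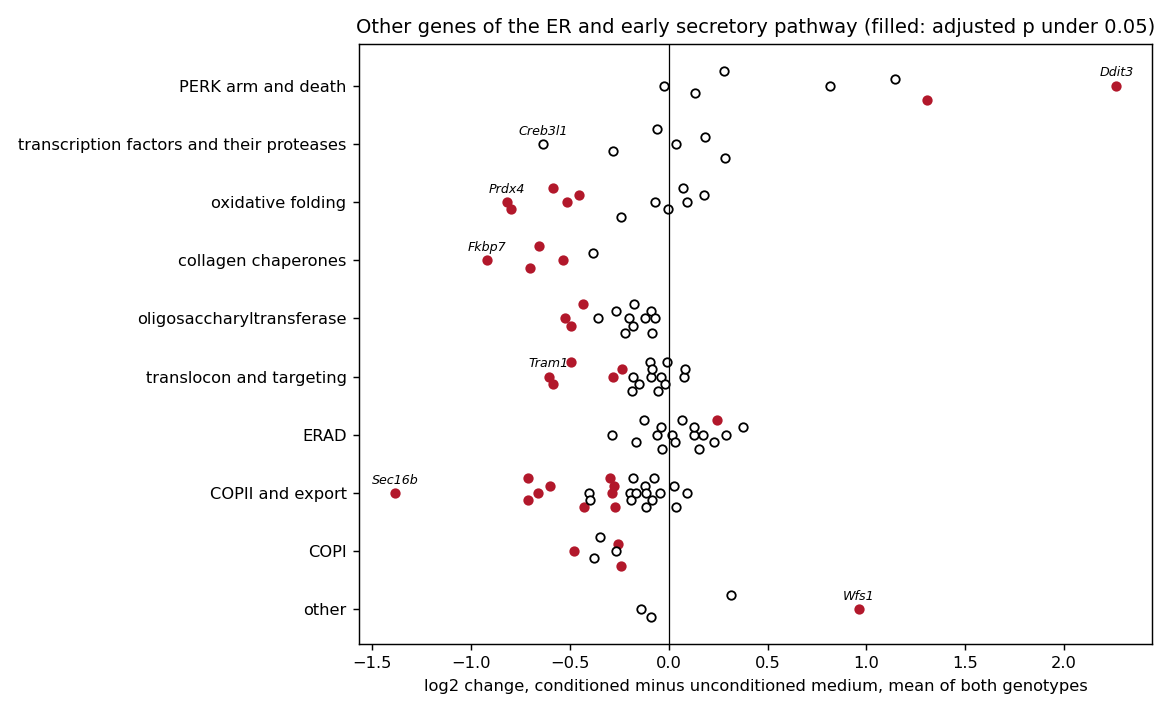
log2 change with conditioned medium, mean of both genotypes, for the 111 tested genes of the further list by class; filled points have an adjusted p under 0.05. Filled points of collagen chaperones, oxidative folding, COPII and translocon genes lie left of 0, and those of the PERK arm (Ddit3 at 2.26) and Wfs1 lie right of 0.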

How the data were processed

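RNA-seq libraries from 12 samples were deposited as tables by library number within a group. Alignment and quantification tools were TopHat2 2.0.9, Cuffdiff 2.1.1, Cufflinks 2.1.1 and CASAVA 1.8.2, on mm10 (GRCm38), per the submitters' processing notes. The authors' deposited values are expected counts (estimated fragments) and FPKM per gene, estimated counts per transcript, transcript lengths, and p-values of start-site shift tests. In the authors' deposited table of those tests, 18 tests of the genes described were run and 0 were significant. Over all genes 157 were significant, and the number of tests run over all genes was not counted here, so the shares cannot be compared.

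Estimated counts were rounded, filtered by filterByExpr and scaled by TMM. The test was glmQLFTest of edgeR 4.0.16 (R 4.3.3), with 4 groups in 1 fit, 7 residual degrees of freedom and an adjusted p threshold of 0.05; 13603 genes were tested. Rows with no symbol (2.69 to 3.10% of fragments) were left out. The mean of the 2 near-identical libraries was 1 sample, so the fit had 11 libraries and not 12. CPM are TMM-scaled. The script was tested on simulated data. Alternatives used limma 3.58.1 and DESeq2 1.42.0, FPKM with a pseudocount of 1 or 0.1, other scaling, no filter, each library left out, and the library number as a block. The block joined KO and WT libraries of the same number, so it did not model pairs within a genotype. Deviations from the group means correlated between same-numbered libraries of KO at 0.358, 0.321 and 0.334, and of WT at -0.0404 (number 0) and 0.513 (number 2), over 10702 genes; nothing ties the numbers to the sample titles.

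The 33 genes, the further lists and the alternatives were chosen with earlier results of these data known. Fragments per library are given for members called in any comparison and for Hspa5, Calr, Ern1, Atf6, Dnajb9 and Herpud1; of the further list, the largest called changes (up to 5 per comparison and direction), Ddit3, Atf4, Eif2ak3 and Creb3l1 are named, and other genes named from it were chosen after their values were seen.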

Additional observations from a re-analysis of the deposited data

How the results depend on the processing

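Counts are of the 33 genes, then of all genes tested. With scaling by library totals alone, members called lower then lost Sec61a1 and Ppib on the mean effect and none in KO. With the replicate block 10 of 11 calls held in KO and on the mean effect (Sec61a1 was lost). Of the further list, 25 of 34 calls on the mean effect and 25 of 33 in KO held with the block: COPI went from 3 to 1, COPII and export from 10 to 6 (Mcfd2, Sec23b, Sec24a and Tmed2 were lost), Srp68, Ppp1r15a and Ufd1l were lost on the mean, and Creb3l1 in KO. Of the genes called in WT, 69.0% were higher, against 50.1% by DESeq2. In WT, DESeq2 called 2 and 886, the WT groups alone 1 member, and all 12 libraries 2 and 923, against 0 and 242; the KO groups alone called 0 and 534, against 11 and 2484. DESeq2 called 2 genes between genotypes in conditioned medium; in unconditioned medium 0 genes, against 1, were called with totals alone, limma, its 2 groups alone or the block. Without library 0 of both KO groups the counts were 1 and 659 between genotypes in unconditioned and 13 and 5765 in conditioned medium, 5 and 1589 for the medium in WT, 19 and 6822 in KO, 20 and 6590 on the mean, and 9 and 2605 for the interaction.

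Leaving out each library gave 0 to 0 members and 0 to 2 genes between genotypes in unconditioned medium, 0 to 12 and 0 to 4507 in conditioned medium, 0 to 3 and 0 to 916 for the medium in WT, 0 to 14 and 319 to 6094 in KO, 5 to 14 and 1215 to 5652 on the mean, and 0 to 2 and 0 to 1419 for the interaction. The causes were not tested.

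Uncalled genes that changed sign were Hspa5 in WT (-0.0065 by limma-voom, -0.027 by limma on FPKM with either pseudocount, -0.13 with the block), Atf6 (0.051 in WT with totals, -0.014 on the mean with the block), Dnajb9 in WT (-0.016 with the block), Herpud1 on the mean (0.090 with totals) and Eif2ak3 (0.00015 in KO and 0.10 on the mean with totals). Leaving out each library, Hspa5 ranged from -0.23 to 0.14 in WT, -0.15 to 0.51 in KO and -0.062 to 0.26 on the mean, Atf6 from -0.22 to 0.095 in WT, -0.0087 to 0.38 in KO and -0.035 to 0.18 on the mean, Dnajb9 from -0.18 to 0.29 in WT, Herpud1 from -0.22 to 0.85 in WT and -0.42 to 0.11 on the mean, and Eif2ak3 from -0.11 to 0.032 on the mean. Depth limits only Sec61g, with 5 to 20 fragments.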
